A study of Mus musculus with 16 samples.

Results

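The 10 genes described here encode granule proteins, secreted factors and a receptor, and were listed as neutrophil and granule genes: S100a8, S100a9, Ngp, Camp, Ltf, Elane, Mpo, Lcn2, Retnlg and Csf3r. Whether neutrophils alone expressed these genes in the ventricles was not tested. The genes were taken by symbol, matched to Ensembl gene identifiers in the mouse GENCODE annotation, and all 10 were found among the 51912 genes of the count table. RNA had been sequenced from whole neonatal ventricles, above and below the ligature, in 16 libraries of 4 groups with 4 libraries each. WT SH was wild type C57BL/6J mice after sham surgery, and WT MI was the same strain after myocardial infarction (MI) by ligation of the left anterior descending coronary artery. KO SH and KO MI were the corresponding groups of mice lacking Lrrc10 in the whole body (Lrrc10-/-) on a C57BL/6 background, not stated to be littermates of the WT mice, and Lrrc10 encodes a leucine-rich repeat protein of cardiomyocytes. All mice were operated on at postnatal day 1 and ventricles were taken 7 days later. The sham operation opened the chest but neither exposed the heart nor tied the artery, so handling of the heart and ligation cannot be told apart in any MI against sham comparison. Library totals ran from 33783874 to 57470159 counts. Lrrc10 itself had 0 counts in each of the 8 KO libraries and 1075 to 1850 counts in the WT libraries, as the genotype labels state. The groups are labelled as sex-balanced, but by Xist and summed Y-linked counts the 4 WT SH libraries were all male, while KO SH, WT MI and KO MI each held 2 female and 2 male libraries.

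Neutrophils are short-lived white blood cells that leave the circulation within hours of tissue damage, and in an infarct they precede the monocytes. They load their granules in order while maturing in the bone marrow: azurophil (primary) granules with myeloperoxidase (Mpo) and neutrophil elastase (Elane) are made by promyelocytes, and specific (secondary) granules with lactoferrin (Ltf), cathelicidin (Camp), neutrophilic granule protein (Ngp) and lipocalin 2 (Lcn2) by later myelocytes. Mature cells are rich in S100a8 and S100a9 mRNA, whose products pair as calprotectin, a cytosolic calcium- and zinc-binding alarmin, and they carry the G-CSF receptor Csf3r. In whole tissue, fewer cells of a type and less RNA per cell cannot be told apart, and this holds for every value below.

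S100a8 and S100a9 are neighbours on chromosome 3 (GRCm39): S100a8 lies on the plus strand at chr3:90567118-90578128 and S100a9 on the minus strand at chr3:90599931-90603071, 21.8 kb away. Camp, Ngp and Ltf lie along chromosome 9, at chr9:109676442-109678685, chr9:110248815-110252086 and chr9:110848339-110871835. The other members are on different chromosomes: Lcn2 at chr2:32274645-32278264, Csf3r at chr4:125918262-125938236, Elane at chr10:79722081-79724051, Mpo at chr11:87684407-87695239 and Retnlg at chr16:48692547-48694862. The 250 bases before the annotated start site are shown for 2 calprotectin genes and 2 specific granule genes, since these 4 were among the tested members that rose after MI in both genotypes. Capitals mark matches to 2 motifs bound by granulocyte transcription factors, TTNNGNAA (reverse complement TTNCNNAA) of the C/EBP family and GAGGAA (reverse complement TTCCTC) of PU.1. The windows are written 5′ to 3′ on the strand of the gene: S100a8 is chr3:90576035-90576284 (plus, before the start of its canonical transcript, which lies inside the gene's span), S100a9 is chr3:90603072-90603321 (minus), Ngp is chr9:110248565-110248814 (plus) and Ltf is chr9:110848089-110848338 (plus).
S100a8: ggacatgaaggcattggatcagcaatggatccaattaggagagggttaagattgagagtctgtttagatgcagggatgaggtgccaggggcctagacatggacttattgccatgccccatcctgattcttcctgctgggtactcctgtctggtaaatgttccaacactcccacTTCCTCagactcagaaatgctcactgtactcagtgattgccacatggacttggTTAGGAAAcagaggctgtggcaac
S100a9: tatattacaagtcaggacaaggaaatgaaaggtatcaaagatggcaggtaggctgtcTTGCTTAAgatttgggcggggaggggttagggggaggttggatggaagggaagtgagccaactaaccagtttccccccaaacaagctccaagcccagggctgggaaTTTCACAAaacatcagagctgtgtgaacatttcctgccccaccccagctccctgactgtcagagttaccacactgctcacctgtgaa
Ngp: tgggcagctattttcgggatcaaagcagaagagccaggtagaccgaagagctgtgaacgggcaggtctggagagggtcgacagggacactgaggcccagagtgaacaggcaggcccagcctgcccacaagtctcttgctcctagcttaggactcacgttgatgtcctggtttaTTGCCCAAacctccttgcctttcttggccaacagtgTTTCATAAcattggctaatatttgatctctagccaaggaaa
Ltf: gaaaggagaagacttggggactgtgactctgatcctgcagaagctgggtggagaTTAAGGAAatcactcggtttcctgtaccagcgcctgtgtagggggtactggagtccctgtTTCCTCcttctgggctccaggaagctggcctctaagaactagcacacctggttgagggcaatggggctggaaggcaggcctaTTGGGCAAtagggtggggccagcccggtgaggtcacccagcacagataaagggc
A match to the C/EBP motif was present in 8 of the 10 windows, against 36.9% of 21770 windows of the same length before protein-coding genes. Elane and Retnlg were without one. For Camp, Mpo and Csf3r, which are among those with a match, the window before the start site in RefSeq, another annotation, did not hold the middle of the window used. The PU.1 letters were in 4 of 10 windows (S100a8, Ltf, Elane and Mpo), against 22.9% of all windows. No member window held TATAAA or its reverse complement TTTATA, which 11.9% of all windows hold. No overlap occurred between marked matches in the 4 windows printed. These matches are descriptions of the letters and not evidence of binding.

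All 10 genes were weakly expressed in these ventricles, where cardiomyocyte transcripts dominate. Levels are given as CPM, counts scaled to library size, with sizes adjusted by the trimmed mean of M-values (TMM), and in these libraries 3 counts equal 0.0577 to 0.0858 CPM. The summed level of the 10 genes was 1.83 ± 0.24 CPM in WT SH, 3.90 ± 0.37 in KO SH, 16.6 ± 7.15 in WT MI and 11.3 ± 3.74 in KO MI (mean ± SD, n = 4 libraries each). In counts, this sum rested on 61 to 113 counts per WT SH library and 339 to 1110 per WT MI library. Between 45.3% and 65.5% of it came from S100a8 and S100a9 in each library. Per kilobase of exon, S100a9 had the highest mean level of the 10 in every group, from 0.640 CPM per kb in WT SH to 5.48 in WT MI, and Elane the lowest or joint lowest in WT SH, WT MI and KO MI. In KO SH, Mpo at 0.00305 CPM per kb was below Elane at 0.0106, but each rested on 2 counts in the same library. Next in WT MI came S100a8 (2.87 ± 1.34 CPM per kb) and Ngp (1.42 ± 0.58), whose ranges over the libraries overlapped. In WT SH the same order held, and the gap between S100a8 (0.177 ± 0.074) and Ngp (0.126 ± 0.022) was smaller than the SD of S100a8.

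**Figure D1:**
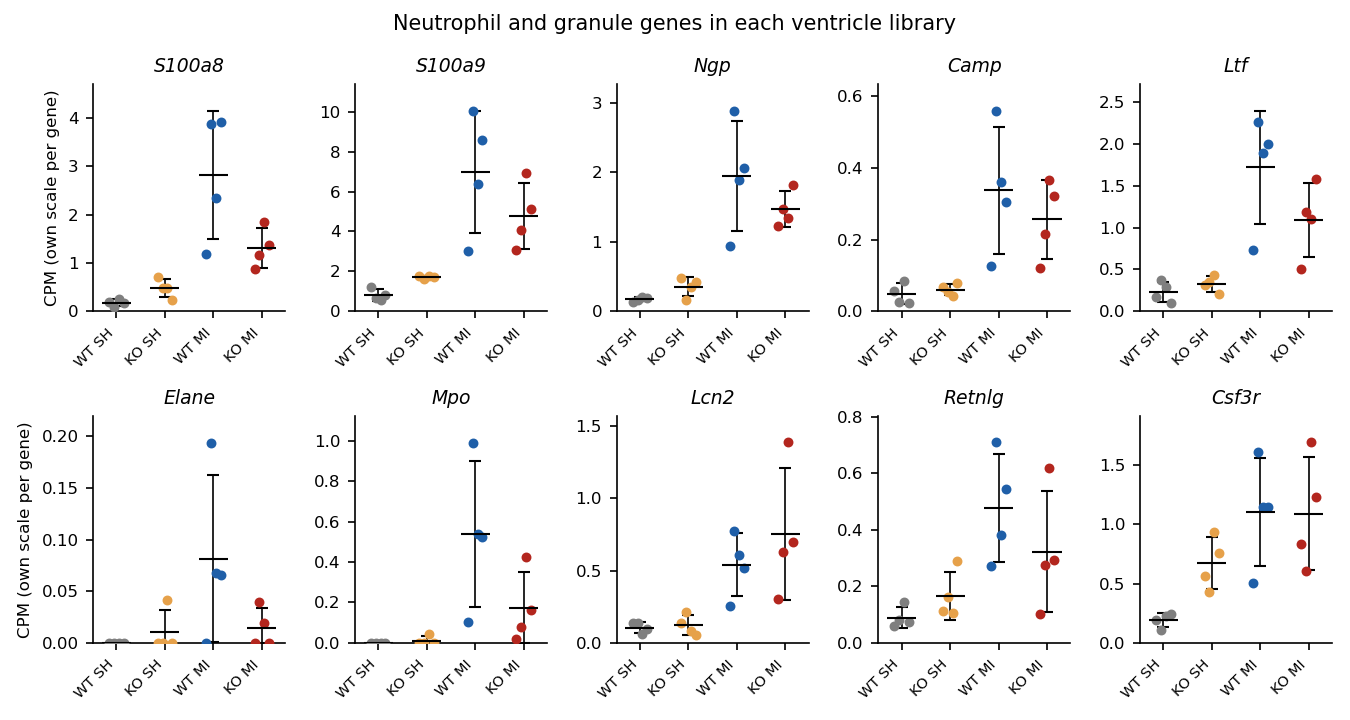
CPM of each of the 10 genes in the 16 libraries, 1 panel per gene with its own linear axis from 0. Points are libraries, horizontal lines group means and bars the SD (n = 4, cut at 0); for S100a9 the 4 WT MI libraries lie between 3.01 and 10.03 CPM and the 4 WT SH libraries between 0.572 and 1.23.

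The first question was how these genes respond to infarction in the regenerating WT heart. Of the 10 genes, 7 had at least 10 summed counts in each group and were tested (S100a8, S100a9, Ngp, Ltf, Lcn2, Retnlg and Csf3r), together with 20159 genes in all. All 7 were differentially expressed genes (DEGs) and higher in WT MI than in WT SH. A DEG is a gene with a Benjamini-Hochberg adjusted p under 0.1 in edgeR's quasi-likelihood test and a log2 fold change of at least 0.5 in size, and 2.13% of all genes tested were DEGs in this direction. The 3 genes left out of the test, Camp, Elane and Mpo, had under 10 summed counts in WT SH. Elane and Mpo also had only 2 each in KO SH, and Elane only 3 in KO MI. The median log2 fold change over the 7 was 2.91, beside -0.004 over all genes tested. All 7 also had no overlap between their WT MI and WT SH libraries, which held for 6.16% of genes tested in this direction, and no DEG call was lost when any 1 of the 8 libraries was left out. By the exact permutation test on log2(CPM + 0.05), two-sided, each of the 7 gave p = 0.0286, the smallest value that 4 against 4 libraries can give.

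The calprotectin genes were among the 3 most changed of the 7, with S100a8 first. In WT SH replicates 1 to 4, S100a8 measured 0.192, 0.0802, 0.257 and 0.169 CPM, and in the same order of WT MI replicates it measured 1.18, 3.87, 2.34 and 3.91 CPM. WT MI replicate 1 was the lowest infarcted library and still lay above every sham library. The log2 fold change of S100a8 was 3.99 ± 0.43 (SE, edgeR adjusted p = 9.41e-05). S100a9 was at 1.23, 0.668, 0.572 and 0.798 CPM in WT SH and at 3.01, 10.03, 6.37 and 8.58 CPM in WT MI. This was a log2 fold change of 3.06 ± 0.34 (edgeR adjusted p = 0.000109), with the same library lowest after MI and no overlap.

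Specific granule genes rose along with them. Ngp, a cystatin-like protein of these granules, was at 0.135, 0.160, 0.200 and 0.194 CPM in WT SH and at 0.946, 2.88, 1.89 and 2.06 CPM in WT MI. Ngp thus had a log2 fold change of 3.495 ± 0.35 (edgeR adjusted p = 6.07e-05), again with WT MI replicate 1 lowest after MI. Ltf, which binds iron, was at 0.173, 0.374, 0.286 and 0.0967 CPM in WT SH and at 0.736, 2.26, 1.89 and 1.998 CPM in WT MI, a log2 fold change of 2.91 ± 0.42 (edgeR adjusted p = 0.00147). Lcn2, which binds bacterial siderophores, went from 0.105 ± 0.037 CPM in WT SH to 0.539 ± 0.218 in WT MI, a log2 fold change of 2.29 ± 0.52 (edgeR adjusted p = 0.0231). Camp, the precursor of the antimicrobial peptide CRAMP, had 8 counts over the 4 WT SH libraries and 62 over the 4 WT MI libraries. Its pooled level was 6.96 times higher in WT MI (95% interval 3.32 to 16.8, counting error only), and its highest sham library (0.0858 CPM) was below its lowest infarcted library (0.126 CPM).

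Azurophil granule genes had no counts in sham WT ventricles. Mpo, the peroxidase that makes hypochlorous acid, had 0 counts in all 4 WT SH libraries and 5, 46, 24 and 24 counts in WT MI replicates 1 to 4. Its pooled level in WT MI was 29.6 times a floor of 3 counts over the WT SH group, without allowance for error in the WT MI counts. Elane, the serine protease, had 0 counts in WT SH and 0, 9, 3 and 3 in WT MI, which was 4.49 times the floor by the same rule. WT MI replicate 1 was as empty as the sham libraries, so the groups overlapped, and the exact permutation test for Elane gave p = 0.143. The resistin-like secreted factor Retnlg had a log2 fold change of 2.44 ± 0.53 (0.0577 to 0.143 CPM in WT SH, 0.273 to 0.710 in WT MI, edgeR adjusted p = 0.0194). Csf3r, the receptor for G-CSF, was at 0.192, 0.107, 0.229 and 0.242 CPM in WT SH and at 0.505, 1.61, 1.15 and 1.15 CPM in WT MI. The log2 fold change of Csf3r was 2.499 ± 0.42 (edgeR adjusted p = 0.00370), and its lowest infarcted library was again WT MI replicate 1.

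In Lrrc10-/- mice, 5 of the 7 tested genes were DEGs and higher in KO MI than in KO SH (S100a8, S100a9, Ngp, Ltf and Lcn2), where 5.31% of all genes tested were DEGs in this direction. The median log2 fold change over the 7 was 1.49, beside -0.010 over all genes. The same 5 genes had no overlap between KO MI and KO SH, which held for 7.68% of genes tested, and each of their calls was kept when any 1 of the 8 libraries was left out. In KO SH replicates 1 to 4, S100a8 measured 0.699, 0.486, 0.480 and 0.236 CPM, and the KO MI libraries (replicates 1, 2, 3 and 7) measured 0.874, 1.16, 1.85 and 1.37 CPM. This was a log2 fold change of 1.45 ± 0.38 (edgeR adjusted p = 0.0213). S100a9 was at 1.76, 1.59, 1.75 and 1.71 CPM in KO SH, the smallest SD (0.0765) of any member and group whose mean exceeded 1 CPM, and at 3.05, 4.10, 6.94 and 5.11 CPM in KO MI. Its log2 fold change was 1.49 ± 0.31 (edgeR adjusted p = 0.00638).

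The specific granule genes followed in this genotype too. Ngp was at 0.473, 0.162, 0.355 and 0.420 CPM in KO SH and at 1.22, 1.48, 1.35 and 1.82 CPM in KO MI (log2 fold change 2.03 ± 0.32, edgeR adjusted p = 0.00123). Ltf had a log2 fold change of 1.70 ± 0.41 (edgeR adjusted p = 0.0131). Lcn2 had the largest change of the 7 in this genotype, from 0.135, 0.216, 0.0835 and 0.0525 CPM in KO SH to 0.305, 0.630, 1.39 and 0.696 CPM in KO MI. That was a log2 fold change of 2.63 ± 0.50 (edgeR adjusted p = 0.00342), and KO MI replicate 3 stood highest. Retnlg had a log2 fold change of 0.97 ± 0.49 (edgeR adjusted p = 0.224) and was called only when KO MI replicate 1 was left out (adjusted p = 0.0724). Csf3r had one of 0.68 ± 0.35 (adjusted p = 0.234), with overlapping groups: 0.432 to 0.939 CPM in KO SH and 0.610 to 1.70 in KO MI. Mpo had 2 counts over KO SH, both in replicate 3, and 1, 4, 22 and 6 counts in KO MI, a pooled ratio of 14.6 (95% interval 3.73 to 126, counting error only). Camp had 10 counts over KO SH and 48 over KO MI, a pooled ratio of 4.25 (2.12 to 9.42). Elane had 2 counts over KO SH and 3 over KO MI, at or under the floor in both groups.

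**Figure D2:**
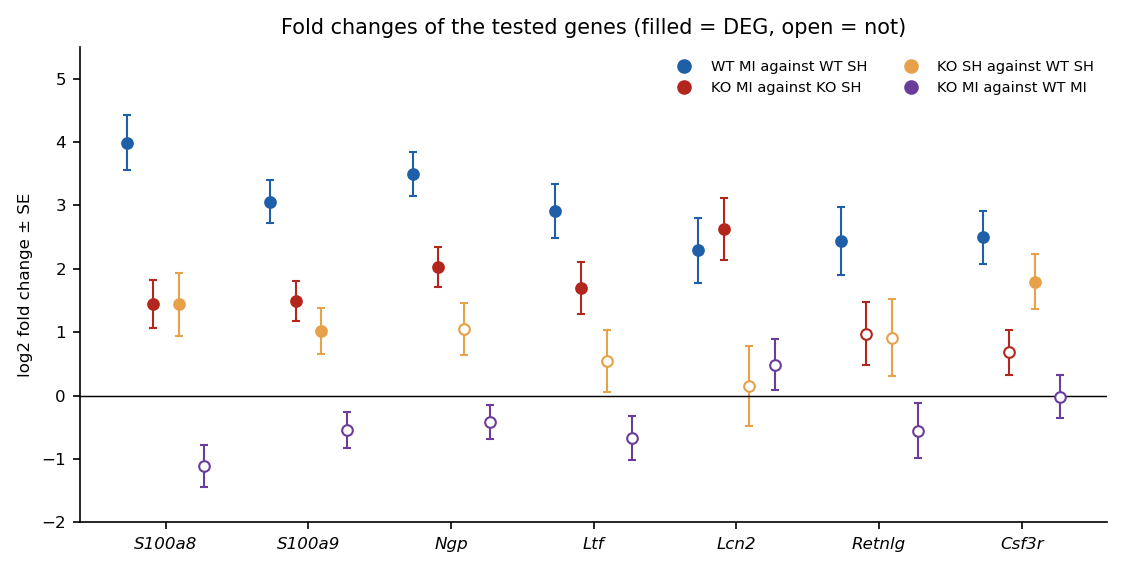
Log2 fold change ± SE of the 7 tested genes in 4 comparisons, from edgeR over all 16 libraries; filled points are DEGs and open points are not. WT MI against WT SH (blue) lies above KO MI against KO SH (red) for 6 of the 7 genes, Lcn2 being the exception at 2.29 and 2.63.

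The next question was whether these genes differed between the genotypes without infarction, comparing KO SH with WT SH. The KO mice were not stated to be littermates of the WT mice. Loss of Lrrc10 therefore cannot be told apart from other differences between the lines in any KO against WT comparison. S100a8, S100a9 and Csf3r were DEGs and higher in KO SH, 3 of the 7 tested, where 2.48% of all genes tested were DEGs in this direction. This comparison shares the WT SH libraries with the first one and the KO SH libraries with the second. Csf3r had the largest change of the 3, with 0.564, 0.432, 0.939 and 0.761 CPM in KO SH against at most 0.242 CPM in WT SH. Its log2 fold change was 1.80 ± 0.43 (edgeR adjusted p = 0.0184), and its call held in all 8 fits that left out 1 library. S100a8 had a log2 fold change of 1.44 ± 0.50 (adjusted p = 0.0862) with groups that overlapped, since KO SH replicate 4 at 0.236 CPM was below WT SH replicate 3 at 0.257 CPM. S100a9 had a log2 fold change of 1.02 ± 0.36 (adjusted p = 0.0940), and its lowest KO SH library (1.59 CPM) was above its highest WT SH library (1.23 CPM). S100a9 and Csf3r were the 2 members with no overlap, which held for 8.35% of genes tested. The other tested members also had log2 fold changes above 0 without passing the test: 1.05 ± 0.41 for Ngp, 0.91 ± 0.60 for Retnlg, 0.55 ± 0.49 for Ltf and 0.15 ± 0.63 for Lcn2. The median over the 7 was 1.02, beside 0.005 over all genes.

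The calls of S100a8 and S100a9 in the sham groups were close to the threshold. S100a8 was called in 2 of the 8 fits that left out a library (without WT SH replicate 3 or KO SH replicate 4) and S100a9 in 1 of 8 (without WT SH replicate 1). Since WT SH was all male and KO SH was not, sex was also added to the fit, and then Csf3r remained a DEG (log2 fold change 1.94, edgeR adjusted p = 0.0181) while S100a8 (1.22, adjusted p = 0.161) and S100a9 (0.98, adjusted p = 0.142) did not. Among males, the 2 KO SH libraries had 0.480 and 0.236 CPM of S100a8, 1.75 and 1.71 of S100a9 and 0.939 and 0.761 of Csf3r. For the latter 2 genes both values exceeded all 4 WT SH libraries. Markers of other cells differed between these sham groups too. C1qa, C1qb and Fcgr1 of the monocyte and macrophage list were lower in KO SH (3 of 14 tested, none higher), with log2 fold changes of -0.78, -1.06 and -2.45 (edgeR adjusted p = 0.0419, 0.0145 and 0.00374). Hbb-bt, an adult beta globin gene, was also lower (log2 fold change -1.86, edgeR adjusted p = 0.00953), the 1 DEG among 8 erythroid markers tested. The part of these other cells in the differences of S100a8, S100a9 and Csf3r was not tested.

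After infarction, none of the 7 tested genes was a DEG between KO MI and WT MI by edgeR, where 1.73% of all genes tested were DEGs in either direction. S100a8 alone of the 7 had an unadjusted p under 0.05, as did 2503 of the 20159 genes tested. Its log2 fold change was -1.103 ± 0.33 (edgeR adjusted p = 0.112), with all 4 KO MI libraries below 3 of the 4 WT MI libraries, and KO MI replicates 3 and 7 above WT MI replicate 1. DESeq2 called this gene (adjusted p = 0.0518), as did edgeR without WT MI replicate 1 (0.0270), without KO MI replicate 3 (0.0934) or without the filter on low counts (0.0585). The exact permutation test gave p = 0.0857 for S100a8. The other log2 fold changes were -0.54 ± 0.28 for S100a9, -0.41 ± 0.27 for Ngp, -0.67 ± 0.35 for Ltf, -0.55 ± 0.44 for Retnlg, -0.02 ± 0.34 for Csf3r and 0.49 ± 0.41 for Lcn2, with adjusted p from 0.475 to 0.994. The libraries of the 2 groups overlapped for all 10 members. Mpo had 33 counts over KO MI and 99 over WT MI, a pooled ratio of 0.325 (95% interval 0.212 to 0.486, counting error only), but KO MI replicate 3 held 22 of the 33, and the exact permutation test over libraries gave p = 0.143. Sex and the level of the members moved in opposite directions in the 2 groups: the female libraries of WT MI (replicates 2 and 4) had summed levels of 23.9 and 19.7 CPM and the males 7.13 and 15.6, while the females of KO MI (replicates 1 and 2) had 7.03 and 9.77 CPM and the males 15.8 and 12.6. This pattern was noticed after the values were seen and was not tested. With sex in the fit, S100a8 had a log2 fold change of -1.01 between KO MI and WT MI (adjusted p = 0.163).

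Whether infarction raised these genes by a different amount in the 2 genotypes was tested as the interaction, the log2 fold change in KO minus that in WT. No member was called by edgeR, where 0.0248% of all genes tested were. For 4 members (S100a8, S100a9, Ngp and Csf3r) the unadjusted p was under 0.05, as it was for 2745 of the 20159 genes tested. S100a8 had the largest interaction at -2.54 ± 0.60 (adjusted p = 0.146), being higher in KO than in WT after sham surgery and, without passing the test, lower after MI. S100a9 had -1.57 ± 0.46 (adjusted p = 0.192), Ngp -1.47 ± 0.49 (0.223), Csf3r -1.81 ± 0.55 (0.202), Retnlg -1.47 ± 0.74 (0.400) and Ltf -1.21 ± 0.60 (0.389). Lcn2 was the only tested member above 0, at 0.34 ± 0.77 (0.883). This count changed with the tool, with the low-count filter and with 1 library. DESeq2 called S100a8 (adjusted p = 0.00891) and Csf3r (0.0939), and edgeR without the low-count filter called S100a8 (0.0804). When KO MI replicate 7 was left out, 4 members were called: S100a8 (0.0328), S100a9 (0.0726), Csf3r (0.0753) and Ngp (0.0829). The number of all genes called for the interaction rose from 5 to 843 in that fit.

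A further 53 genes of neutrophil biology were listed by role, and 23 of them had enough counts to be tested. In WT MI against WT SH 14 of the 23 were DEGs, all higher, and in KO MI against KO SH again 14, all higher, of which 11 were shared. Their median log2 fold change was 1.51 in WT and 1.05 in KO. Between KO MI and WT MI edgeR called 0 of the 23 (2 with an unadjusted p under 0.05, and 1 called by DESeq2), and for the interaction 0 of 23 (1 and 1 likewise). Among granule protein genes, haptoglobin (Hp), the gelatinase Mmp9, olfactomedin 4 (Olfm4) and lysozyme 2 (Lyz2) were DEGs in both genotypes, 4 of the 4 tested. Hp went from 0.0619 ± 0.0345 CPM in WT SH to 1.103 ± 0.533 in WT MI, a log2 fold change of 4.12 ± 0.67 (edgeR adjusted p = 0.00289), and had one of 2.91 ± 0.52 in KO (adjusted p = 0.00270). Mmp9 had log2 fold changes of 3.47 ± 0.57 in WT and 2.55 ± 0.53 in KO. Lyz2, the most abundant of this group and also a macrophage gene, rose from 8.54 ± 0.84 to 24.3 ± 7.59 CPM in WT and from 8.33 ± 0.44 to 24.7 ± 7.02 CPM in KO. Of the 9 granule genes not tested, Bpi had 0 counts in every group, and Prtn3 and Ctsg, which share azurophil granules with Elane, had 0 counts in WT SH and 6 and 10 over WT MI.

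Among surface receptors, the integrin subunits Itgam and Itgb2, the chemokine receptor Cxcr2 and the lectin Clec4d rose in both genotypes. Cxcr2, which guides mature neutrophils out of the marrow, had log2 fold changes of 2.89 ± 0.59 in WT (adjusted p = 0.0147) and 1.63 ± 0.55 in KO (adjusted p = 0.0616), where the call was lost without KO SH replicate 1, 2 or 3 or KO MI replicate 3. Itgam, the most abundant receptor listed and also a macrophage gene like Itgb2, had 1.58 ± 0.39 in WT (not called without WT MI replicate 2) and 2.61 ± 0.40 in KO, and KO MI replicate 3 at 31.6 CPM stood above the other KO MI libraries, which had at most 12.4. Ly6g, the usual surface marker of mouse neutrophils, had 1 count in each of WT MI replicates 2 and 3 and 0 in the other 14 libraries, and Cxcr1 had 0 in every group. The label of the gene set could therefore not be checked against Ly6g at this depth.

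Of the cytosolic and secreted group, the stefin A genes Stfa2 and Stfa2l1 and the cytokine Il1b rose in both genotypes, though the call of Stfa2l1 in KO was lost without KO SH replicate 2, 3 or 4 or KO MI replicate 2 or 3. Stfa3 and the histidine decarboxylase gene Hdc rose in WT (log2 fold changes 3.61 ± 0.52 and 0.67 ± 0.19), and the call of Hdc held in 3 of the 8 fits that left out a library. Counts of the stefin A genes are uncertain because their sequences are nearly identical. Stfa3 was also the only one of the 23 called in KO SH against WT SH (1.76 ± 0.58, adjusted p = 0.0710), and that call was lost without WT SH replicate 1, WT SH replicate 2, KO SH replicate 1, KO SH replicate 2 or KO SH replicate 4. G0s2, the most abundant gene of this group, had log2 fold changes of -0.19 ± 0.12 in WT and -0.04 ± 0.12 in KO. No granulocyte transcription factor was called in WT, and Spi1, which encodes PU.1, was higher in KO MI than in KO SH (0.85 ± 0.26, adjusted p = 0.0438), a call lost without KO MI replicate 3 or KO SH replicate 4. Cebpb, the most abundant, had 0.46 ± 0.17 in WT (adjusted p = 0.166) and 0.47 ± 0.17 in KO (0.0796, below the fold needed), and was a DEG in neither.

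Ligands that attract neutrophils were at low levels in sham ventricles. Cxcl1, a chemokine that binds Cxcr2 and the 1 ligand with enough counts in all groups, rose in WT MI (0.976 on the log2 scale, SE 0.25, edgeR adjusted p = 0.0445) from 0.346, 0.561, 0.629 and 0.435 CPM in WT SH to 1.01, 0.947, 1.06 and 0.825 CPM. That call was lost without WT SH replicate 1 or without WT MI replicate 2 or 3. In KO MI it was at 0.427, 0.492, 0.732 and 0.535 CPM, below every WT MI library. The log2 fold change of Cxcl1 between KO MI and WT MI was -0.81 ± 0.25 (edgeR adjusted p = 0.119), and it was called by DESeq2 and by edgeR without KO MI replicate 3. By the exact permutation test on the libraries, Cxcl1 gave p = 0.0286 for KO MI against WT MI. Cxcl2, Cxcl3, Cxcl5 and Il6 were too low in sham to be tested. Cxcl2 had at most 0.0802 CPM in any sham library, 0.526 to 1.87 in WT MI, and 0, 1.02, 1.97 and 0.8294 CPM in the KO MI libraries. Cxcl3 had 0 counts in all sham libraries and 0.337 to 0.538 CPM in WT MI against 0.0203 to 0.401 in KO MI. The mean levels of Cxcl5 and Il6 had the other order, with 0.831 ± 0.410 CPM of Cxcl5 in WT MI and 1.077 ± 0.799 in KO MI, and 0.162 ± 0.094 CPM of Il6 in WT MI and 0.314 ± 0.204 in KO MI, each with overlapping libraries. Csf3, which encodes G-CSF, the ligand of Csf3r, had at most 4 counts over any group, and Il17a had 0 counts throughout. All 4 receptors for calprotectin passed the filter, Ager with only 8 to 31 counts per library. Bsg had a mean of 338 CPM in WT SH and 279 in WT MI (log2 fold change -0.28 ± 0.071, edgeR adjusted p = 0.0443, below the fold needed for a DEG), and Tlr4 was a DEG in KO MI against KO SH (0.54 ± 0.18, adjusted p = 0.0658) with overlapping libraries. It had 39.04 CPM in KO MI replicate 2 and 17.6 to 19.6 in the other KO MI libraries, against 13.7 to 20.2 in KO SH, and the call was lost without KO MI replicate 2 or any of KO SH replicates 1, 2 and 4. Ager and Cd33 were not DEGs in any comparison.

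**Figure D3:**
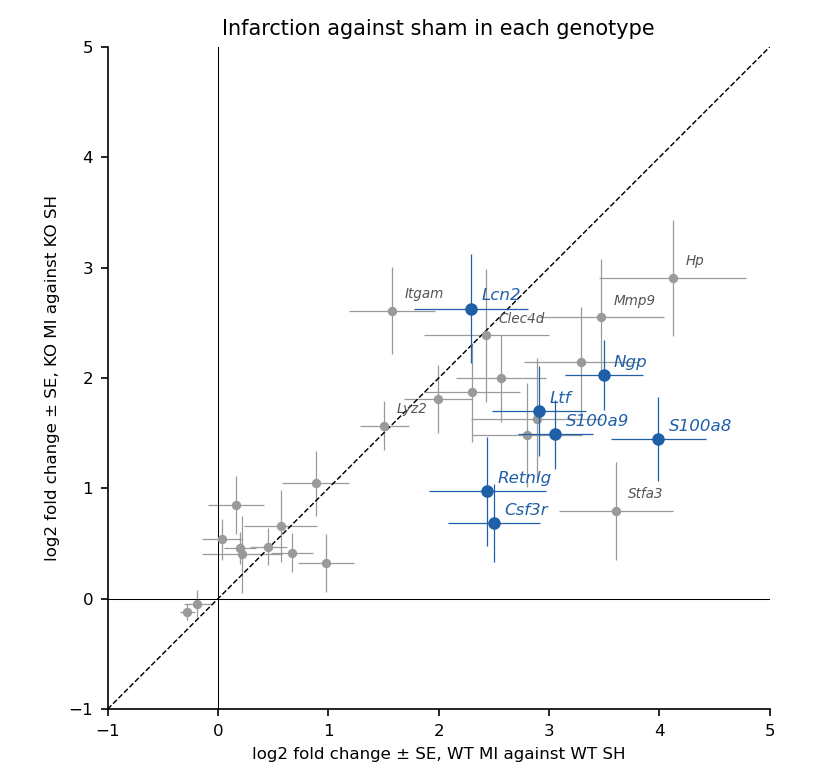
Log2 fold change ± SE of MI against sham in WT (horizontal axis) and KO (vertical axis) for the 7 tested genes (blue, named) and the 23 other tested neutrophil genes (grey, 6 named); the dashed line marks equal change. The axes share no library, 6 of the 7 blue points lie below the line, and 12 of the 23 grey points do.

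Markers of other blood and tissue cells moved in some of the same comparisons. Of 14 monocyte and macrophage markers, all tested, 2 were DEGs in WT MI against WT SH (Ccr2, log2 fold change 1.92 ± 0.27, and Cd14, 1.70 ± 0.40) and 10 in KO MI against KO SH, all higher. The 10 were Adgre1, Csf1r, C1qa, C1qb, C1qc, Mrc1, Cd163, Ccr2, Cd14 and Fcgr1, with log2 fold changes of 0.54 to 2.06. Mrc1 was the most abundant. Every MI library lay above every sham library for 6 of the 14 in WT and for 4 of the 14 in KO. Between KO MI and WT MI edgeR called 0 of the 14, with 8 above 0 and 2 at an unadjusted p under 0.05. For the interaction it called 0 of the 14, with 5 at an unadjusted p under 0.05. C1qa, C1qb and Fcgr1 were also the 3 DEGs between the sham groups, with negative log2 fold changes there. The summed level of this list was 77.9, 77.8, 70.4 and 67.2 CPM in WT SH and 86.7, 104, 84.6 and 93.2 CPM in WT MI. It was 66.8, 72.0, 66.2 and 64.0 CPM in KO SH and 71.4, 89.4, 138 and 88.1 CPM in KO MI. KO MI replicate 3 was thus the highest of all 16 libraries for macrophage markers and the highest KO MI library for the members, while KO MI replicate 1 was the lowest infarcted library for both. Erythroid markers were DEGs for 7 of 8 tested in KO MI against KO SH (among them Hba-a1, Hba-a2, Hbb-bs, Hbb-bt, Alas2 and Slc4a1), all higher. For none of these 7 did the libraries of the groups separate. The summed erythroid level ran from 417 to 498 CPM in KO SH and from 355 to 1147 CPM in KO MI, and KO MI replicate 7 was at 355. Hba-a1 and Hba-a2 are near-identical copies and their split is uncertain. Hba-a2 and Alas2 also exceeded their WT MI level in KO MI (log2 fold changes 0.81 ± 0.23 and 1.07 ± 0.24). Hbb-bt had the opposite sign there (-1.19 ± 0.37, adjusted p = 0.136), with every KO MI library below every WT MI library. In WT MI against WT SH 0 of 8 erythroid markers were DEGs by edgeR, with 1 at an unadjusted p under 0.05. The part of macrophages or blood in the changes of the members was not tested.

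Skeletal muscle markers stood out in 2 KO MI libraries. Their summed level was 69.1 CPM in KO MI replicate 2 and 113 in replicate 7, against at most 12.5 in every other library. Myh1, Myh8, Tnnt3 and Tnni2 were DEGs and higher in KO MI than in KO SH, 4 of 4 tested, and Myh1, Myh8 and Tnni2 also exceeded WT MI. Myh8, a perinatal myosin heavy chain gene and the most abundant of the list, had log2 fold changes of 5.25 ± 0.96 and 3.41 ± 0.81. Without replicate 2 or without replicate 7, the same 5 members were DEGs in KO MI against KO SH. Cardiomyocyte markers, led by Ttn, summed to 69632 to 81455 CPM in WT SH and 58960 to 64647 CPM in the other 3 groups, and none of the 5 was a DEG in any comparison by edgeR because their changes were below the fold needed or missed the adjusted threshold. In KO SH against WT SH, Ttn (log2 fold change -0.24, adjusted p = 0.0135), Myh6 (-0.35, 0.0302) and Actc1 (-0.37, 0.0908) passed the adjusted threshold, with every KO SH library below every WT SH library. The B cell marker Ms4a1 was higher in KO MI than in KO SH (log2 fold change 1.65 ± 0.40), 1 of 2 DEGs among 4 B cell markers tested. It had 4.05 CPM in KO MI replicate 3 and 0.834 to 1.45 in the other KO MI libraries. The megakaryocyte integrin Itga2b was lower (-0.55 ± 0.18), the 1 DEG among 4 platelet markers tested, of which 2 had log2 fold changes above 0. Its mean was 1.11 CPM in WT SH, 1.56 in KO SH and 1.07 in KO MI. No marker of mast cells (5 tested), eosinophils and basophils (1 tested) or T cells and thymocytes (6 tested) was called by edgeR, with at most 2 of a list at an unadjusted p under 0.05 in any comparison, and the lung epithelium list had no gene with enough counts to be tested. The surfactant gene Sftpc of that list had 24 counts (0.473 CPM) in KO MI replicate 2 and 32 (0.856 CPM) in replicate 7, the same libraries that were high in skeletal muscle markers, 1 count in KO MI replicate 3 and 0 in the other 13 libraries. Without the low-count filter it was called in KO MI against WT MI (edgeR adjusted p = 0.0449). The part of other tissues in the values of the members was not tested. The most abundant genes of these lists were Kit, Siglecf, Cd4, Ms4a1, Pf4 and Sftpc for mast cells, eosinophils and basophils, T cells, B cells, platelets and lung.

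**Figure D4:**
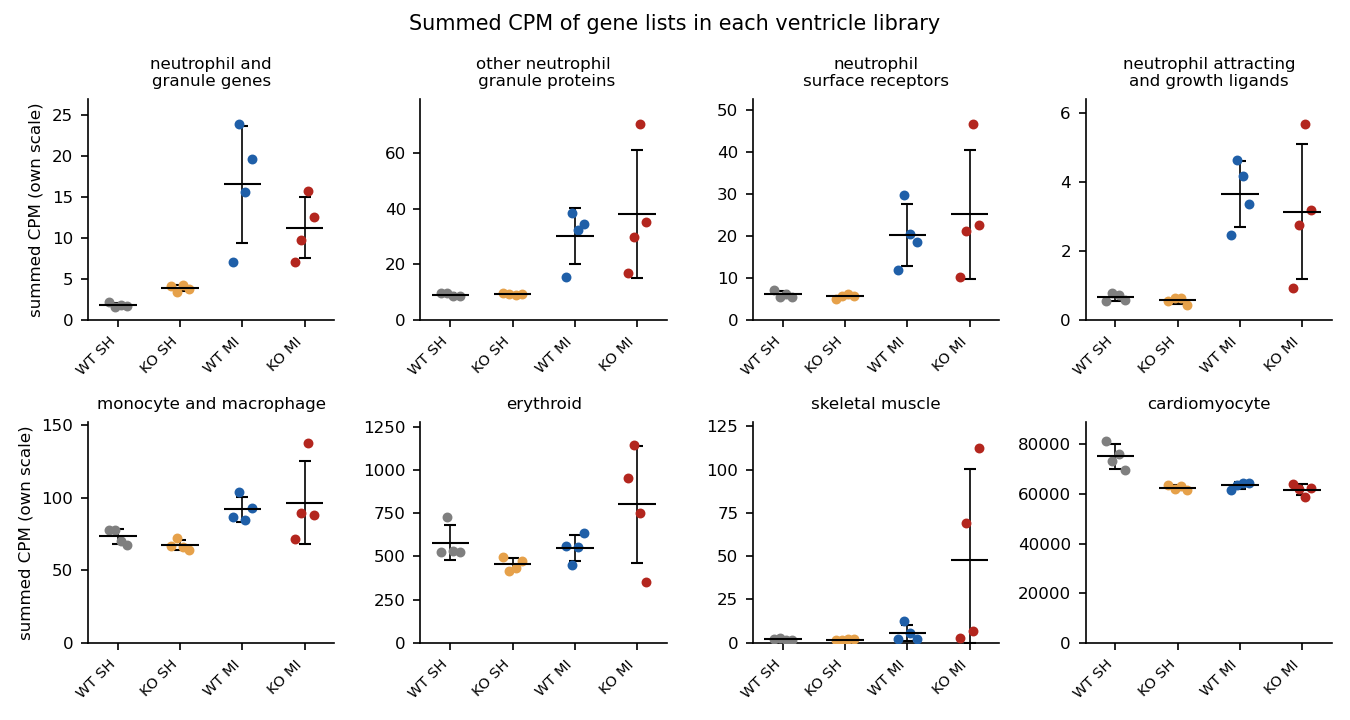
Summed CPM of the members and of 7 other lists in the 16 libraries, each panel with its own linear axis from 0; points are libraries, lines means and bars the SD (n = 4, cut at 0). The members rise in both MI groups, KO MI replicate 3 leads the macrophage panel at 138 CPM, and the skeletal muscle panel is high in 2 KO MI libraries (69.1 and 113 CPM).

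Genes across the whole table were then ranked by how closely they followed the members. The likeness measure was Pearson's r over the 16 libraries between log2(CPM + 0.05) and the mean z-score of the 7 tested members, among 14134 other genes with a mean of at least 1 CPM. The 10 most alike were Ptprc (the leukocyte common antigen CD45, r = 0.957), Cd300lf (0.955), Itgb2 (0.948), Cd74 (0.948), Ccr2 (0.942), Mpeg1 (0.939), Ildr2 (0.935), Lyz2 (0.933), Rab11fip1 (0.932) and Stk26 (0.931). These values describe 16 libraries that fall into sham and MI groups. With the group means removed, r was still 0.921 for Ptprc, 0.890 for Lyz2 and 0.869 for Mpeg1, and it was lowest for Ccr2 at 0.607. Ptprc had a mean of 7.90 CPM in WT SH, 8.18 in KO SH, 16.1 in WT MI and 15.3 in KO MI. The mean z-score of the members itself was lowest in WT SH (-1.23 to -1.04), next in KO SH (-0.51 to -0.41), and ran from 0.19 to 1.46 in WT MI and from 0.08 to 1.15 in KO MI. WT MI replicate 1 and KO MI replicate 1 were the lowest of their groups.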

How the data were processed

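Ventricle RNA was depleted of rRNA, made into stranded libraries and sequenced as paired reads. Per the labels, the authors' deposited table holds RSEM expected counts (estimated counts per gene) on GRCm39. The sources disagree on the aligner: the submitters' processing notes name cutadapt, HISAT2 2.2.1 and RSEM 1.1.17, the study's methods Skewer, STAR and another RSEM version. Expected counts were rounded to whole numbers. Genes were named through GENCODE M39, which matched 47772 of 51912 identifiers. Unmatched identifiers held 0.570% to 0.786% of a library's counts. Genes with at least 10 summed counts in each group were tested with edgeR 4.0.16 (TMM, quasi-likelihood F-test, all 16 libraries in 1 fit, Benjamini-Hochberg over 20159 genes). The thresholds follow the study's methods, which used DESeq2. Single genes were also compared by exact permutation tests over 70 arrangements. Scripts were tested on simulated data.

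The members and all gene lists were chosen with earlier results of these data known, so no list is independent evidence. Genes named were the members, every listed gene called in any comparison, the most abundant gene of each list and the 10 most alike. Some listed genes that were called are not reported here. Of 125 listed markers 124 matched. Nothing in the labels says which mice the libraries came from, so p-values measure the spread between libraries. Intervals and floors are 95% and 3 counts and cover counting error only. Alternatives were DESeq2 1.42.0, other filters, thresholds and size factors, a replicate block, sex, and leaving out each library.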

Additional observations from a re-analysis of the deposited data

Results flagged for a closer look

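Over the members and the summed lists there were 108 groups of 4 libraries. They were screened for a single library whose distance from its nearest neighbour filled most of the range of its group. The members' own sum, counted in the 108, was not screened, and a group of equal values could not be flagged. Chance flags about 1 in 20 groups of normally spread values, but a group with counts in only 1 library is always flagged. There were 6 such values, in 4 libraries. Elane and Mpo each had 0.0417 CPM in KO SH replicate 3, where the other 3 KO SH libraries had 0 counts, and each value rested on 2 counts. In WT MI replicate 2, the granulocyte transcription factors summed to 8.46 CPM and the eosinophil and basophil markers to 1.33 CPM, above the other 3 WT MI libraries. WT MI replicate 2 also had the highest summed level of the members. The B cell markers summed to 6.65 CPM in KO MI replicate 3, against 1.61 to 2.38 in the other KO MI libraries. The erythroid markers summed to 732 CPM in WT SH replicate 2, against 528 to 533 in the other WT SH libraries.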

How the results depend on the processing

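Infarction against sham was the stable result: no member call was lost in WT or in KO under any alternative run. Between the sham groups 3 members were called, against 1 (Csf3r) at an adjusted p under 0.05, 1 with the replicate number as a block, 1 with sex as a covariate and 1 to 2 when single libraries were left out. DESeq2 called 4 there, adding Ngp (adjusted p = 0.0992), which edgeR also called without KO SH replicate 2 (0.0768). For KO MI against WT MI 0 members were called, against 1 (S100a8) by DESeq2, 1 without a low-count filter and 0 to 1 when single libraries were left out. For the interaction 0 were called, against 2 by DESeq2, 1 without a filter, 3 (Csf3r, Ltf and S100a8) with the block and 0 to 4 when single libraries were left out. KO MI replicate 7 is the only library with its number, so the block sets it apart much as leaving it out does. The direction turned for Csf3r between KO MI and WT MI (-0.02, from -0.32 to 0.23 over single libraries left out), for Lcn2 between KO SH and WT SH (0.15, from -0.23 to 0.38, negative without WT SH replicate 3 or KO SH replicate 2) and for the interaction of Lcn2 (0.34, from -0.15 to 0.72, negative without KO MI replicate 3), none of which passed the test.

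Of the other neutrophil genes, 14 of 23 tested were called in KO MI against KO SH, against 24 of 50 without a filter and 22 of 32 with filterByExpr, because more genes were tested, and in WT MI against WT SH 14 of 23, against 25 of 50 without a filter. Between the sham groups it was 1, against 0 at an adjusted p under 0.05, 0 with sex, 2 by DESeq2, 2 without a filter, 2 with filterByExpr, 2 with only the libraries compared and 0 to 2 over single libraries left out. For KO MI against WT MI it was 0, against 1 by DESeq2, 1 without a filter, 1 with the block and 0 to 1 over single libraries left out, and for the interaction 0, against 1 by DESeq2, 1 with the block and 0 to 1.

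Over all genes, the interaction had 5 calls, against 3 at an adjusted p under 0.05, 211 by DESeq2, 39 without a filter, 689 with the block, 8 with sex, and 2 to 843 when single libraries were left out (843 without KO MI replicate 7). Without the minimum fold, calls were 3536 in KO MI against KO SH (1495 with it), 619 in KO MI against WT MI (348), 2486 between the sham groups (1010) and 1071 in WT MI against WT SH (560). Fitting only the libraries compared gave 192 for KO MI against WT MI. Leaving out single libraries gave 883 (without KO MI replicate 2) to 2200 in KO MI against KO SH, 229 (without WT MI replicate 1) to 582 (without KO MI replicate 7) in KO MI against WT MI, 665 (without WT SH replicate 1) to 1232 between the sham groups and 281 (without WT MI replicate 2) to 642 in WT MI against WT SH. Except for the added genes, the cause of these changes was not tested.

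Replicate numbers did not pair the libraries: correlations of same-numbered deviations ran from -0.039 to 0.113, and 7 of 28 libraries correlated best with their own number. Depth limited Camp, Elane and Mpo, which missed the filter through their low sham counts, and Elane also through its 3 counts over KO MI. Without the filter edgeR called Camp and Mpo in WT MI against WT SH (adjusted p = 0.00788 and 0.00112) and in KO MI against KO SH (0.0260 and 0.0438), and Elane in neither. Depth also limited levels under 3 counts per library.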

Other observations

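The ratio of S100a9 to S100a8 counts, looked at after the values were seen, was 2.55, 2.59, 2.72 and 2.19 in WT MI replicates 1 to 4 and 3.49, 3.53, 3.75 and 3.75 in KO MI replicates 1, 2, 3 and 7. These values are a description, since the pair was chosen with them in view. The sham ratios ran from 2.22 to 8.33 and rested on as few as 3 counts of S100a8.

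Chil3, which encodes the chitinase-like protein Ym1, was chosen here after its values were seen. It had 1791 counts (34.5 CPM) in KO MI replicate 3, 110 counts (2.37 CPM) in WT MI replicate 2, at most 13 counts in the other MI libraries and at most 4 in any sham library. KO MI replicate 3 and WT MI replicate 2 were also the libraries with the highest summed level of the members in their groups. It was too low in KO SH to be tested.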
